A study of Rattus norvegicus with 13 samples.

Results

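Haemoglobin and erythroid transcripts were followed in the thyroid of rats exposed in utero to potassium iodide (KI). The members were chosen by gene symbol among the probes of the array: Hbb, Alas2, Slc4a1 and every symbol that starts with Hba or Hbb followed by nothing, a digit or a hyphen. This rule took 7 of 45598 probes, which carry 6 of 36174 gene names, namely Hba1, Hba2, Hbb, Hbb-b1 with 2 probes, Alas2 and Slc4a1. No measured value enters the rule, but the genes were put forward with earlier results of these data known, and their group differences are therefore a description. The question was whether these genes moved together over the animals, as RNA of blood left in the tissue would, and whether they differed between the groups.

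Total RNA of the thyroid of 13 male Wistar rats, 51 days after birth, was measured on one-colour arrays of 60-base probes. The mothers of the KI-treated group (n = 6) had received 1 mg/kg/day of KI by gavage for 8 days of gestation, and those of the control group (n = 7) saline. The litter of each animal is not given, so littermates cannot be told from unrelated animals and p-values measure only the spread between these arrays. All levels below are log2 of the spot intensity minus the 75th percentile of the array, so that a value of 0 is the 75th percentile and a difference of 1 is a doubling. Levels are compared between arrays for the same probe, and the levels of different probes are not ranked against each other. Where probes are subtracted from each other, this is done within an array, and the differences are compared between arrays. The number of gene spots well above background ranged from 36398 to 41050 in the KI-treated group and from 34840 to 40683 in the controls. Of 11 thyroid follicular cell markers, 10 were well above background on all 13 arrays, with thyroglobulin (Tg) between 9.80 and 10.58, and Slc26a4 on 0 arrays. Controls 4 and 6 stood apart from the other arrays in the balance of probes at the start and at the end of transcripts. Values without them, an omission chosen after seeing the data, are given below, but not for every result. They cover members, other globin probes, the genes closest to the globin mean and gene lists.

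Haemoglobin carries oxygen in red cells as a tetramer of alpha and beta chains, each holding a haem group. Haem is made in the red cell precursor from glycine by a pathway whose first enzyme there is Alas2, and anion exchanger 1, encoded by Slc4a1, is the main membrane protein of the red cell. Young red cells of the circulation still hold globin RNA, so that globin transcripts measured in a solid tissue such as the thyroid, a richly perfused gland, are usually read as blood. In whole tissue, fewer red cells and less globin RNA per red cell cannot be told apart.

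The probes differ in where they lie on the transcript. Their sequences are shown for that reason, 5′ to 3′ with the build rn4 of the array design. The Hba1 probe (chr10:15584360-15584419, minus strand) holds the polyadenylation hexamer AATAAA, in capitals in its last 30 bases. The Hba2 probe (chr10:15571700-15571759, minus strand) and the Hbb probe (chr1:161620134-161620193, minus strand, last 30 bases shown) hold the start codon, in capitals with the next codon.
Hba1: tggtctttgAATAAAgcctgagtaggaagc
Hba2: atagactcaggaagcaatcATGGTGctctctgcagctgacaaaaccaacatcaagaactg
Hbb: actcagaaacagacaccATGGTGcacctga
Compared with the first 50 transcribed bases of each gene in RefSeq (build GRCr8), the Hbb probe held all 50 bases of Hbb in a row. The Hba2 probe shared 36 bases in a row with Hba-a2, 35 with Hba-a1 and 32 with Hba-a3, so it is not specific to 1 alpha gene. No other member probe shared 25 bases in a row with such a window. Hba2 and Hbb are called the start-site probes below.

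Of the Hbb-b1 probes, one lies in a single block (chr1:161597660-161597719, minus strand) and the other is placed over 292 bases (chr1:161590879-161591170, minus strand), more than its own length, as a probe across an intron is. The probe of the embryonic gene Hbe2 (chr1:161648636-161648695, minus strand), which is no member, is shown with the single-block probe because 35 of 44 aligned bases were identical between them, in capitals. All other pairs among the members and the other globin probes detected on all 13 arrays shared 25 bases or fewer in their best ungapped alignment.
Hbb-b1 single-block: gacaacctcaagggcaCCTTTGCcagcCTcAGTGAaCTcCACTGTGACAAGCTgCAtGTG
Hbe2: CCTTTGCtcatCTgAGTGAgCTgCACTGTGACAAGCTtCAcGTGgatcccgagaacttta
Hbb-b1 split: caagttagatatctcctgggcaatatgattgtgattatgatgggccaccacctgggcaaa
The Alas2 probe (chrX:39810353-39810412, plus strand) and the first 30 bases of the Slc4a1 probe (chr10:91455352-91455411, minus strand) are shown because these 2 genes behaved differently although both mark red cells.
Alas2: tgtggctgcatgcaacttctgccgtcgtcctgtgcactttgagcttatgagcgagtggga
Slc4a1: agccctcatgagagacttgctgtgtccaac

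All 7 probes were well above background on all 13 arrays and none of their spots was saturated, so none was lost to the filter on dim probes. Hba1, Hba2 and the Hbb-b1 probes had 10 spots per array each, Hbb had 2, and Alas2 and Slc4a1 had 1. The spots of one probe differed little within an array: the median SD over arrays was 0.037 for Hba1, 0.039 for Hba2, 0.043 for Hbb, 0.029 for the single-block and 0.039 for the split Hbb-b1 probe. Between arrays of one group the SD of the same 5 probes was 0.29 to 0.40, so the spread between arrays exceeded the spread between spots.

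Of the alpha chain probes, 1 lies at each end of the transcript. Hba1 was lowest at 7.59, at a median of 7.88 and highest at 8.23 in the KI-treated group, and at 7.69, 7.94 and 8.89 in the control group. The highest levels were those of control 6 and control 4 (8.54), while the other 5 controls lay within the range of the KI-treated group. Hba2, read by its start-site probe, was lowest at 2.68, at a median of 3.14 and highest at 3.40 in the KI-treated group, and at 2.38, 3.01 and 3.11 in the control group. Control 4 was here the lowest array, control 7 (2.51) was next, and control 6 had the highest level of the control group.

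Of the beta chain probes, Hbb is a start-site probe, and neither Hbb-b1 probe holds AATAAA. The single-block Hbb-b1 probe was lowest at 6.62, at a median of 6.81 and highest at 7.28 in the KI-treated group, and at 6.42, 6.95 and 7.52 in the control group. For the split Hbb-b1 probe these values were 6.12, 6.36 and 6.81 in the KI-treated group and 6.07, 6.45 and 7.31 in the control group. Both probes were highest in control 6 and lowest in control 7. Hbb, read by its start-site probe, was lowest at 2.36, at a median of 2.71 and highest at 3.20 in the KI-treated group, and at 1.53, 2.36 and 2.75 in the control group. Controls 4 and 7 (1.61) were the lowest arrays, and 5 of 6 KI-treated arrays lay above the median of the control group, although the groups overlapped.

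Alas2, the erythroid form of the first haem synthesis enzyme, was lowest at 0.34, at a median of 0.60 and highest at 1.17 in the KI-treated group, and at 0.03, 0.62 and 1.13 in the control group. It was highest in KI-treated 2 and control 6 and lowest in control 7, as the Hbb-b1 probes were among the controls. Slc4a1 ranged more widely than any other member, over 3.02 log2 units. It was lowest at -2.50, at a median of -1.39 and highest at 0.52 in the KI-treated group, and at -2.26, -1.42 and -1.02 in the control group. Its highest level was that of KI-treated 4, an array in which the other members lay within the range of their group, and its lowest that of KI-treated 3.

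**Figure D1:**
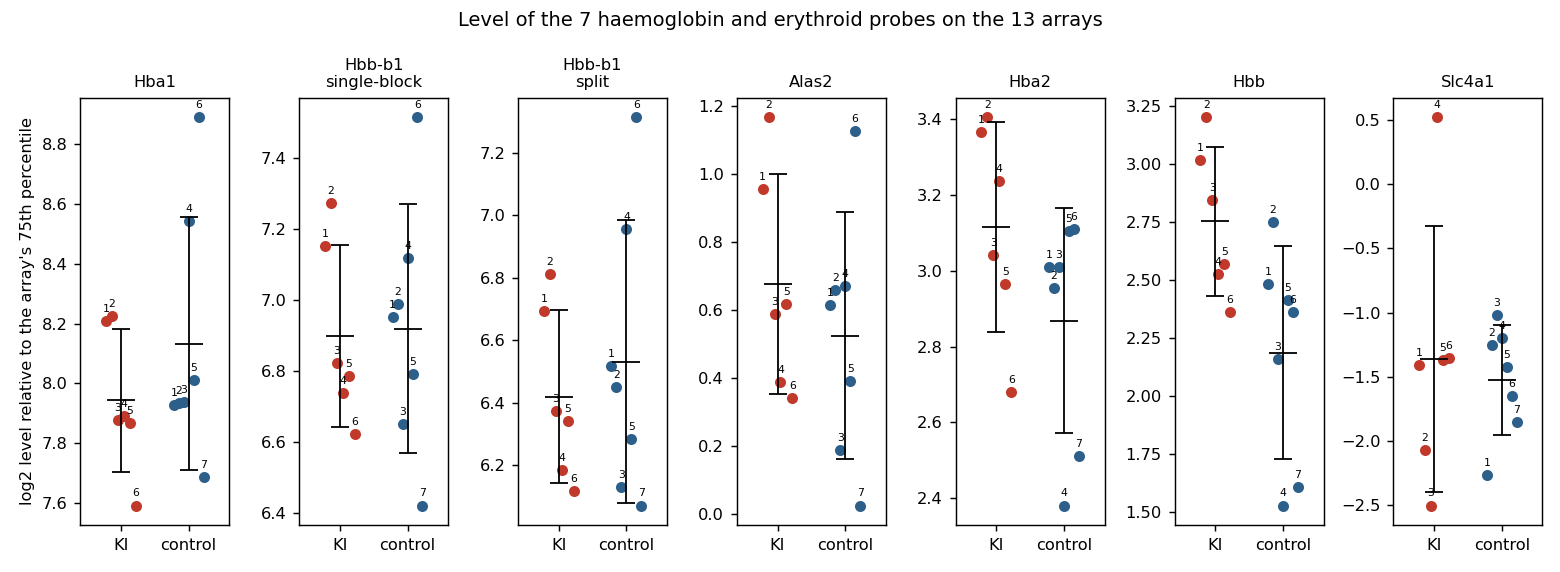
Log2 level of each member probe relative to the 75th percentile of its array (vertical axis, a separate scale per panel) in the KI-treated group (red, n = 6) and the control group (blue, n = 7), with the replicate number above each point and the mean ± SD in black. The groups overlap in all 7 panels, and controls 4 and 6 are the highest control arrays for Hba1 but not for Hbb, where control 4 is the lowest at 1.53.

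Over the 13 arrays, Hba1, both Hbb-b1 probes and Alas2 moved together. Pearson's r was 0.95 (Spearman's rho 0.80) between Hba1 and the split Hbb-b1 probe, 0.88 (rho 0.82) between Hba1 and the single-block probe, and 0.96 (rho 0.97) between the Hbb-b1 probes. Alas2, which shares no globin sequence, had r = 0.95 (rho 0.96) with the single-block probe, 0.86 (rho 0.94) with the split probe and 0.72 (rho 0.72) with Hba1. The start-site probes Hba2 and Hbb moved with each other, at r = 0.86 (rho 0.69), and less with the rest: the 6 pairs of a start-site probe with Hba1 or an Hbb-b1 probe had r from -0.03 to 0.41. With Alas2 they had r = 0.53 (rho 0.43, Hba2) and 0.58 (rho 0.51, Hbb). These coefficients are descriptions over 13 arrays, whose probes share the RNA, the hybridisation and the scaling of the array, and have no p-value.

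Slc4a1 did not follow the others: its r with the other 6 members lay between -0.27 and 0.06 (median -0.18). The order of the correlations did not rest on the group means, since after subtraction of each group mean the pairs among Hba1 and the Hbb-b1 probes had r from 0.91 to 0.96, the mixed pairs 0.18 to 0.50 and the pairs with Slc4a1 -0.30 to 0.02. After subtraction of slide means, the same 3 sets of pairs had r from 0.88 to 0.98, -0.26 to 0.51 and -0.28 to 0.26. Without control 6 and KI-treated 2, the arrays farthest from the median of the mean level of the 5 globin probes, they had r from 0.80 to 0.92, -0.16 to 0.35 and -0.15 to 0.21.

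The separation of the start-site probes rested on controls 4 and 6. Without these 2 arrays all 15 pairs among the 6 members other than Slc4a1 had r between 0.72 and 0.97 over 11 arrays. The 6 mixed pairs then had r from 0.72 to 0.91, while the pairs with Slc4a1 stayed between -0.38 and 0.16. The median r over all 21 pairs was 0.37 with 13 arrays and 0.82 with 11. Leaving out 1 array at a time gave a median between 0.16 (without control 7) and 0.61 (without control 4).

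**Figure D2:**
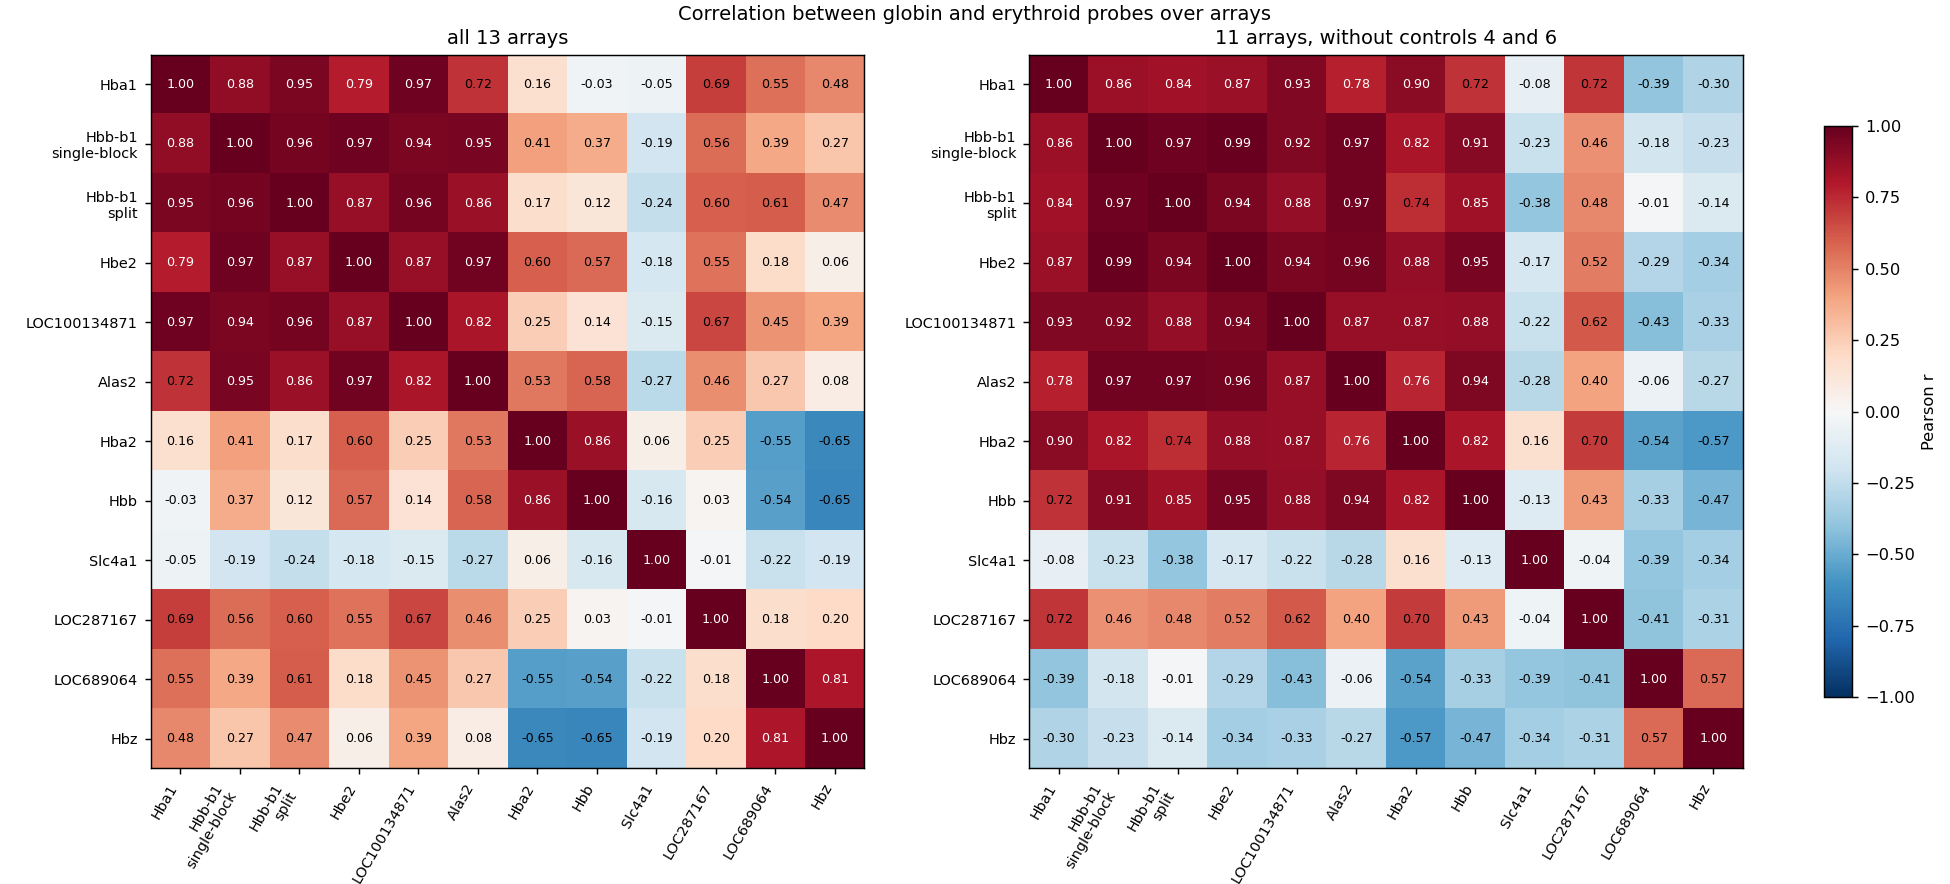
Pearson's r between the 7 member probes and the 5 other globin probes that were well above background on all arrays, over all 13 arrays (left) and over 11 arrays without controls 4 and 6 (right), with the value in each cell and the colour scale from -1 to 1. Hba2 and Hbb join the block of Hba1, Hbb-b1, Hbe2, LOC100134871 and Alas2 only in the right panel, while Slc4a1, LOC689064 and Hbz stay outside it in both and LOC287167 lies between, with r from 0.40 to 0.72 with those 6 members on the right.

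The same 2 arrays differed from the rest in probes of other genes. Over 75 tested probes of other genes that hold at least 25 bases of the first 50 transcribed bases of a gene, and 2802 tested probes that hold AATAAA, the median deviation from the mean of 13 arrays was taken for each array. The AATAAA probes lay at 0.49 in control 4 and 0.38 in control 6, against -0.13 to 0.05 in the other 11 arrays. The start-site probes lay at 0.12 in control 4 and -0.17 in control 6, within the range of -0.19 to 0.33 of the other 11 arrays. All 25717 tested probes together lay at 0.22 in control 4 and 0.08 in control 6. The difference of start-site minus AATAAA probes was -0.38 in control 4 and -0.55 in control 6, and between -0.14 and 0.36 in the others.

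The globin probes had the same 2 arrays at the low end. The mean of Hba2 and Hbb minus the mean of Hba1 and the Hbb-b1 probes, a difference of log2 levels within the array, was -5.58 in control 4 and -5.17 in control 6. It was -4.67 in control 7, and -4.38 to -4.27 in the other 4 controls. In the KI-treated group it was -4.26 to -4.06, with a mean of -4.15 ± 0.08 (SD, n = 6), against -4.67 ± 0.52 (SD, n = 7) in the control group. The groups did not overlap in this difference, but KI-treated 6 (-4.26) and control 5 (-4.27) nearly met, and the measure was built after the values had been seen and has no test. Over 13 arrays it had r = 0.69 (rho 0.09) with the difference of start-site minus AATAAA probes of the other genes, which rests on controls 4 and 6: without them r was -0.28. RNA integrity values of single arrays are not given in the labels. The part of the transcript end in the levels of Hba2 and Hbb was not tested.

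**Figure D3:**
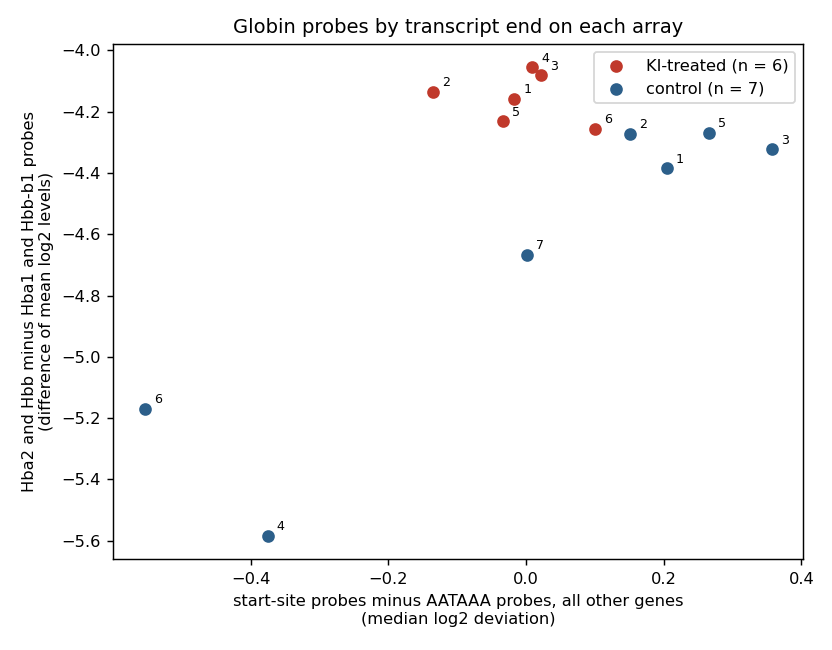
Difference between the start-site globin probes (Hba2, Hbb) and the other globin probes (Hba1, Hbb-b1), in log2 units, against the difference between start-site and AATAAA probes of all other genes on the same array, in log2 units, for the KI-treated group (red, n = 6) and the control group (blue, n = 7) with replicate numbers. Controls 4 and 6 lie apart at the lower left, at -5.58 and -5.17 on the vertical axis, and r over the other 11 arrays was -0.28.

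**Figure D4:**
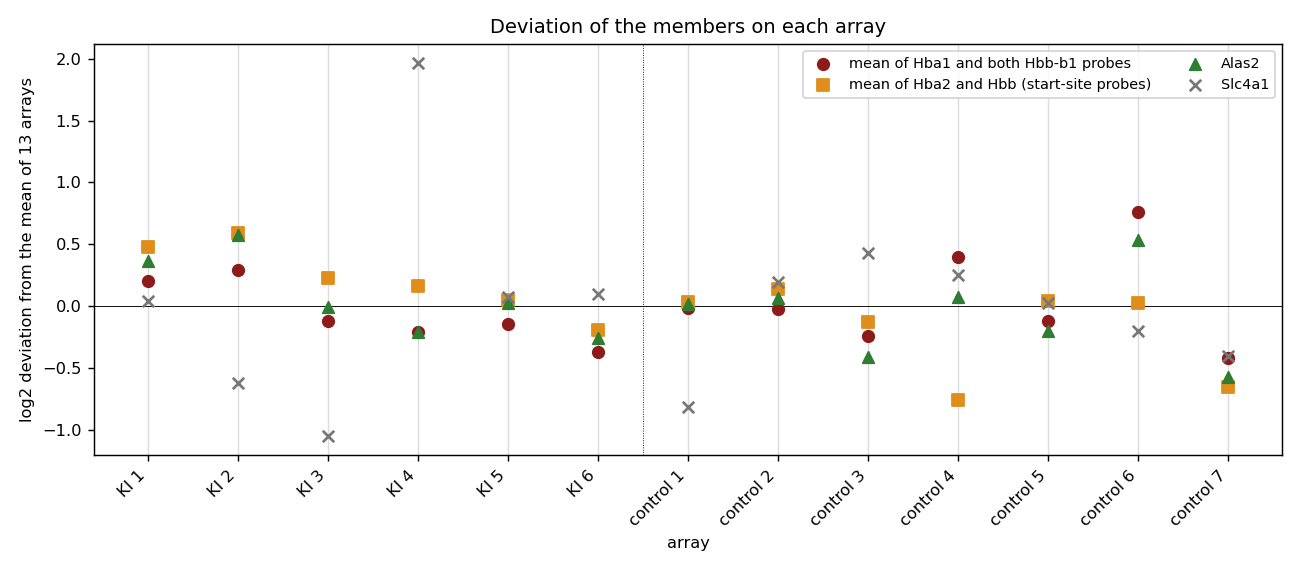
Deviation of the members from their mean over the 13 arrays, in log2 units (vertical axis), for each array (horizontal axis, KI-treated arrays left of the dotted line): the mean of Hba1 and both Hbb-b1 probes, the mean of Hba2 and Hbb, Alas2, and Slc4a1. The first 3 lie close to each other on most arrays but part in controls 4 and 6, and Slc4a1 has its highest point, a level of 0.52, in KI-treated 4, which is not extreme for the others.

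Between the groups, none of the 7 members passed an adjusted p of 0.05 in limma, and neither did any of the 25717 probes tested (0% called, and the smallest adjusted p was 0.257). At an unadjusted p under 0.05, 1 of the 7 members was called, Hbb, beside 3271 probes or 12.7% of all tested. The KI-treated group was the higher in 1469 of these (5.71% of all tested) and the lower in 1802 (7.01%), and the split was 1823 higher and 1432 lower after quantile normalization and 1166 higher and 3427 lower with normexp and the 75th percentile. No member had groups that did not overlap, against 0.587% of all probes tested. The median difference over the 7 members was 0.15, beside -0.08 over all tested probes. It was not stable: it was 0.01 without KI-treated 4, 0.04 without control 1, 0.05 without KI-treated 2, 0.07 without control 7 and 0.10 without KI-treated 1 or control 3. It was also 0.01 with the slide, 0.04 with the scan session and 0.07 with the replicate number as a block. It was 0.10 with normexp and the 75th percentile, and 0.23 with the percentile over spots. Array weights gave 0.128. Quantile normalization gave 0.164, normexp with quantile normalization 0.154 and the deposited values 0.159. It was 0.166 without control 4. Without controls 4 and 6 the member median was 0.198, beside -0.00834 over all tested probes.

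Hbb averaged 2.75 ± 0.32 (SD, n = 6) after KI against 2.19 ± 0.46 (SD, n = 7) in controls. It was thus 0.57 ± 0.21 (SE) higher in the KI-treated group (limma, adjusted p = 0.359) and in an exact two-sided permutation test over 1716 splits of the arrays the unadjusted p was 0.0274. The same exact permutation test gave p between 0.157 and 0.901 for the other 6 members. Hba2 was 0.25 ± 0.16 (SE) higher in the KI-treated group (limma, adjusted p = 0.470). For the other globin probes the difference was -0.19 ± 0.19 (SE) for Hba1, -0.11 ± 0.20 for the split and -0.02 ± 0.17 for the single-block Hbb-b1 probe, with limma adjusted p between 0.604 and 0.952. Their sign turned after quantile normalization, which gave 0.0695, 0.0697 and 0.164 in the same order. It also turned without controls 4 and 6, where the differences were 0.0447, 0.129 and 0.139. Alas2 differed by 0.15 ± 0.19 (SE), by 0.30 ± 0.17 (SE) without controls 4 and 6 and by 0.05 without KI-treated 2. Slc4a1 differed by 0.16 ± 0.38 (SE), and by -0.22 without KI-treated 4.

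The difference of Hbb lay between 0.44 and 0.66 under the other settings of processing and modelling, and between 0.46 (without control 4) and 0.66 (without control 2) when 1 array was left out. It was 0.47 without controls 4 and 6 (limma, adjusted p = 0.523). The adjusted p did not fall under 0.188 in any of these fits. Hbb and Hbb-b1 both encode adult beta chains, and whether their differences were unequal was not tested.

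**Figure D5:**
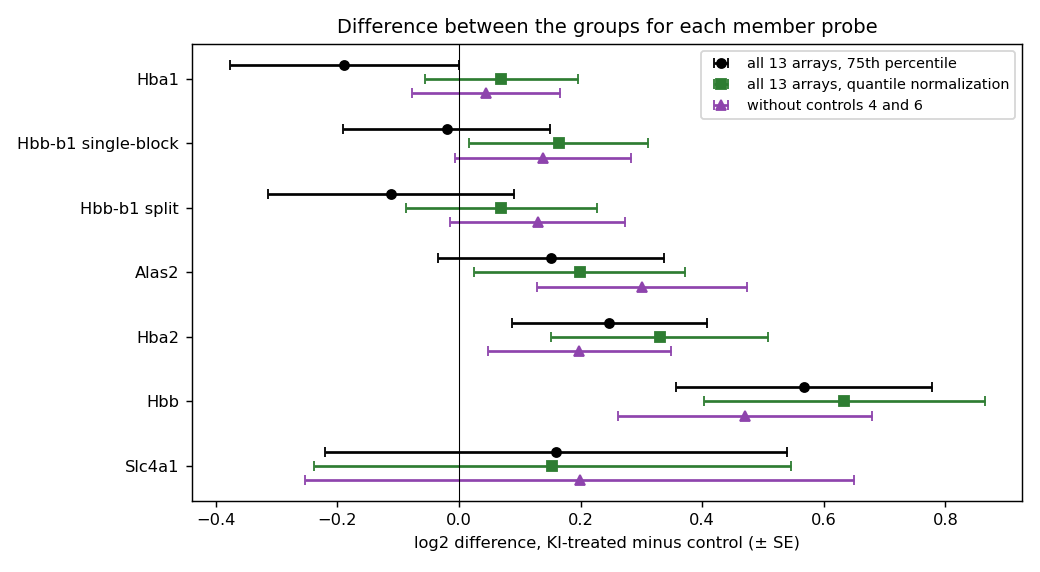
Log2 difference of each member probe, KI-treated minus control, with its SE from limma, for all 13 arrays scaled to the 75th percentile (black), all 13 arrays after quantile normalization (green) and 11 arrays without controls 4 and 6 (purple). Hbb lies at 0.57, 0.63 and 0.47, and Hba1 and the Hbb-b1 probes change sign between the settings.

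The arrays lay on 6 slides, 5 of which held both groups, and were scanned in 3 sessions. Within the slides, the difference of Hbb was 1.67 on the slide of KI-treated 2 and control 4, 0.48 on that of KI-treated 3 and control 6, and -0.06, 0.09 and 0.24 on the other 3. These first 2 slides make up 1 scan session, within which Hbb differed by 1.08, against 0.03 and 0.47 in the other sessions. Hba1 was lower in the KI-treated arrays on 5 of 5 slides, with a difference of -1.01 on the slide of control 6, -0.32 on that of control 4, and between -0.08 and -0.03 on the other 3. With the slide as a block, where control 7 is alone on its slide and adds nothing, limma gave 0.44 ± 0.24 (SE, adjusted p = 0.379) for Hbb, and with the scan session as a block 0.50 ± 0.23 (SE, adjusted p = 0.247). Alas2 differed by 0.01 with the slide as a block.

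Of the other globin probes on the array, chosen after the values had been seen, 5 were well above background on all 13 arrays. LOC100134871, a beta globin minor gene named Hbbl1 in RefSeq, had r between 0.82 and 0.97 with Hba1, the Hbb-b1 probes and Alas2, and differed by -0.10 ± 0.17 (SE) between the groups, or 0.10 ± 0.12 (SE) without controls 4 and 6. Hbe2 had r between 0.79 and 0.97 with the same 4 probes and differed by 0.07 ± 0.19 (SE), or 0.22 ± 0.18 (SE) without controls 4 and 6. Given the identical bases shown above, signal of Hbb-b1 on the Hbe2 probe was not separated from expression of Hbe2. LOC689064, a beta globin named Hbb-bs in RefSeq, lay between 3.52 and 6.22 and was highest in controls 4 and 6 (6.08). It differed by -0.56 ± 0.44 (SE, limma, adjusted p = 0.530), but by -0.02 ± 0.35 (SE) without these arrays. Its r was -0.55 with Hba2 and -0.54 with Hbb and between 0.27 and 0.61 with Hba1, the Hbb-b1 probes and Alas2, and without controls 4 and 6 it was between -0.54 and -0.00918 with these 6 members. For Hbz, the embryonic zeta chain, another probe was well above background on only 1 array and was not tested. The Hbz probe detected on all 13 arrays was -2.13 to -1.60 in the KI-treated group and -1.99 to -0.79 in the control group. It differed by -0.47 ± 0.16 (SE, limma, adjusted p = 0.354), or by -0.31 ± 0.14 (SE, adjusted p = 0.512) without controls 4 and 6. Its r was -0.65 with both Hba2 and Hbb, and between -0.57 and -0.14 with the same 6 members without controls 4 and 6. LOC287167, an alpha globin named Hba-a3 in RefSeq, differed by -0.06 ± 0.17 (SE), or 0.06 ± 0.16 (SE) without these arrays. Probes of the embryonic genes Hbe1 and Hbg1 were well above background on 0 and 1 arrays.

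The genes whose pattern was most like the globin mean were sought among 20662 genes, as Pearson's r over 13 arrays after subtraction of group means with the mean of the 5 globin probes. The closest was Hbe2 (r = 0.99), and LOC100134871 was the third (r = 0.88). Between them came Akt2, a kinase of insulin signalling (r = 0.91), which differed by -0.07 ± 0.12 (SE) between the groups. Cyp4f37, a cytochrome P450, had r = 0.86, a transcript annotated as a Hox-A5 homeobox gene 0.85, and Dgat2, which makes triglycerides, 0.80. The other 4 were LOC102555707, FQ108151, Aff2 and ENSRNOT00000034817, with r from 0.80 to 0.82, and were well above background on 8 to 11 arrays. In all, 10 genes had r of 0.8 or more and 12 had -0.8 or less. How many genes would reach such values by chance was not tested, and these r have no p-value. Without control 6 and KI-treated 2, 7 of the 10 genes fell under r of 0.8, to between 0.67 and 0.77, and Hbe2 had 0.98, Cyp4f37 0.88 and Akt2 0.82. Without controls 4 and 6, 6 of the 10 were under 0.8, at 0.685 to 0.795, and Hbe2 had 0.99, LOC100134871 0.96, Akt2 0.92 and Cyp4f37 0.86.

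Further genes of the red cell were taken from lists. Of 10 haem synthesis genes other than Alas2, all were well above background on all arrays, and 0 were called at the adjusted threshold. Alas1, the form of Alas2 that all tissues use, differed by -0.34 ± 0.20 (SE, limma, adjusted p = 0.447), or -0.17 ± 0.20 (SE) without controls 4 and 6. The median of the list was -0.14, beside -0.08 over all tested probes, and 0.06 beside -0.00834 without controls 4 and 6. Fech, which inserts the iron to make haem, had r = 0.79 with the globin mean. The list mean had r = 0.27, which was -0.16 without controls 4 and 6 and -0.25 without control 6 and KI-treated 2.

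Of 12 membrane and cytoskeleton genes of the red cell, 8 were tested, 0 were called in either direction and the median difference was -0.07, or 0.15 without controls 4 and 6. Kel, a blood group protein, differed by -0.44 ± 0.30 (SE). Epb42 and Rhag were not well above background on any array, and no probe was matched to Epb41 or Ermap. Of 10 globin chaperone and red cell enzyme genes, 9 were tested, 0 were called and the median was -0.11, or 0.05 without these arrays. Car1, a carbonic anhydrase of red cells, differed by -0.39 ± 0.22 (SE), or -0.23 ± 0.20 (SE) without them. Ahsp, which binds free alpha chains, was well above background on all arrays and had r = 0.29 with the globin mean.

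Of 9 erythroid transcription factor and receptor genes, 6 were tested and 0 were called, with a median of 0.16. The factor Gata1, which defines the erythroid lineage, and Nfe2 were well above background on 0 arrays, and Gfi1b on 1. Tal1 was 0.58 ± 0.21 (SE) and Lmo2 0.31 ± 0.14 (SE) higher in the KI-treated group at unadjusted p of 0.0145 and 0.0439 (limma, adjusted p = 0.358 and 0.389), which is 2 of 6 beside 12.7% of all tested probes. Without controls 4 and 6 the differences were 0.30 ± 0.13 (SE, unadjusted p = 0.0333) and 0.17 ± 0.10 (SE, unadjusted p = 0.120). Both are partners in one complex that endothelial cells express too, and their r with the globin mean was -0.12 and 0.02, or 0.48 and 0.34 without controls 4 and 6. Of 10 endothelial genes, 0 were called and 3 had an unadjusted p under 0.05: Emcn at 0.94 ± 0.37 (SE) and Tie1 at 0.39 ± 0.17 (SE), both surface proteins of the vessel wall, and Vwf (von Willebrand factor) at -0.43 ± 0.18 (SE). Without controls 4 and 6 they differed by 0.37 ± 0.12, 0.17 ± 0.09 and -0.20 ± 0.10 (SE), and only Emcn had an unadjusted p under 0.05. The part of endothelial cells in the levels of Tal1 and Lmo2 was not tested. Tfrc, the transferrin receptor, differed by 0.44 ± 0.26 (SE). Of 9 genes of haemoglobin scavenging and iron export, 8 were tested and 0 were called, with a median of 0.04. Hmox1, which breaks down haem, differed by 0.50 ± 0.33 (SE) and Slc48a1, a haem transporter, by 0.38 ± 0.19 (SE). Without controls 4 and 6 they differed by 0.33 ± 0.36 and 0.24 ± 0.14 (SE).

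Other cells of the blood were mostly near background. Of 12 neutrophil and monocyte genes, 4 were tested, and S100a8, Mpo, Elane, Camp, Ngp, Cxcr2, Csf3r and Mmp8 were well above background on 0 to 2 arrays. None was called, and 3 of the 4 had an unadjusted p under 0.05, beside 12.7% of all tested probes: Ly6c at 0.67 ± 0.22 (SE), Lcn2 at 0.54 ± 0.24 (SE) and S100a9 at -1.06 ± 0.47 (SE). Ly6c was lowest in control 4, at -2.30, and differed by 0.52 ± 0.18 (SE) without that array. Without controls 4 and 6 the differences were 0.48 ± 0.18 for Ly6c, 0.35 ± 0.22 for Lcn2 and -0.67 ± 0.43 (SE) for S100a9, and only that of Ly6c had an unadjusted p under 0.05. The mean level of the 4 tested genes lay between -2.39 and -1.90 in the KI-treated group and between -2.47 and -1.75 in the control group. Of 10 platelet genes, 4 were tested and 0 were called, with Gp1bb at -0.18 ± 0.20 (SE) and Gp9 at -0.11 ± 0.16 (SE), or 0.04 ± 0.15 and -0.00739 ± 0.16 (SE) without controls 4 and 6, and Ppbp and Gp6 were well above background on 0 arrays. Pf4, an abundant platelet chemokine, had r = 0.48 with the globin mean, or 0.78 without these arrays.

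Of 12 lymphocyte genes, 4 were tested and 0 were called. Cd3g differed by 0.76 ± 1.07 (SE) and Cd3d by 0.57 ± 0.71 (SE), and KI-treated 1 stood far above the rest in both, with Cd3d at 3.75 against -1.64 to -1.30 in the other KI-treated arrays. The globin mean of that array, 5.69, was the third highest of 13. Over 13 arrays the mean levels of the gene lists had r between -0.31 and 0.46 with the globin mean. This r changed, to unequal extents, when pairs of arrays were left out. It was 0.38 for the platelet list, 0.07 without control 6 and KI-treated 2 and 0.45 without controls 4 and 6. For the lymphocyte list these values were 0.36, 0.60 and 0.42, for the neutrophil and monocyte list 0.28, 0.36 and 0.09, and for the endothelial list 0.35, 0.03 and 0.41. Haemoglobin scavenging and iron export genes had 0.37, 0.68 and 0.32, and erythroid transcription factor and receptor genes 0.39, 0.49 and 0.48. Red cell membrane and cytoskeleton genes had 0.44, 0.07 and 0.28, and globin chaperone and red cell enzyme genes 0.12, -0.07 and 0.19. The 10 tested thyroid follicular cell genes had 0.36, -0.34 and 0.14, and 6 C cell and parathyroid genes -0.31, -0.19 and -0.25. For 8 adipocyte genes r was 0.46, 0.35 and 0.32, and for 9 tested skeletal muscle genes 0.08, -0.16 and 0.04. In these lists 0 genes were called, with median differences of -0.04 in the endothelial, -0.27 in the adipocyte, -1.17 in the skeletal muscle, -0.15 in the thyroid follicular cell and 0.10 in the C cell and parathyroid list. In the same order, these medians were 0.04, -0.26, -1.30, -0.05 and 0.09 without controls 4 and 6. The median over all tested probes was then -0.00834, against -0.08 with 13 arrays. The part of any of these cell types in the levels of the globin probes was not tested.

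The 250 bases before the start of the member genes, from RefSeq (build GRCr8), are shown for Hba-a1, Hbb and Alas2, whose probes moved together without controls 4 and 6. The table holds such a window for 5 of the 6 members. The letters below were searched on both strands and are in capitals: AGATAA and TGATAA, read by GATA factors, CCACACCC, read by Klf1, and CCAAT.
Hba-a1, chr10:15842581-15842830, minus strand: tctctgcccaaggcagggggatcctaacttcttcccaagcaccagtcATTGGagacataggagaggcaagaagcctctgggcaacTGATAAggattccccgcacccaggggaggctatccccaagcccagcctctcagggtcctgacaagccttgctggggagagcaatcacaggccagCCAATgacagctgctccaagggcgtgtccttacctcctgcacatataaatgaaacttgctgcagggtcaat
Hbb, chr1:167663722-167663971, minus strand: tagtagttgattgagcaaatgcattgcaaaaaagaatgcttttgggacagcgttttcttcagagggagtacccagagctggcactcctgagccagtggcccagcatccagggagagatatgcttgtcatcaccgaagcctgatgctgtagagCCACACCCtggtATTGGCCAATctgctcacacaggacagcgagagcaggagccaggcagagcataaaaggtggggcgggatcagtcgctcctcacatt
Alas2, chrX:22895200-22895449, plus strand: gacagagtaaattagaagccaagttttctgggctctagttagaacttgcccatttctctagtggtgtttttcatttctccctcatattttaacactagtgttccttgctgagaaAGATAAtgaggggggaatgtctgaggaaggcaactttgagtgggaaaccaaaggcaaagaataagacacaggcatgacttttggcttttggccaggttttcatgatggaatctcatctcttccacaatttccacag
TGATAA was found once in the windows of Hba-a1 and Hba-a2 and AGATAA once in that of Alas2, and 16.9% of all 33469 windows of this length hold one or the other. CCACACCC was found in the window of Hbb, and 2.84% of all windows hold it. CCAAT, which 34.0% of windows hold, was found in the windows of Hba-a1, Hba-a2, Hbb and Hbb-b1, and in that of Hbb on both strands in one run of letters. A match is a description of the letters and no site was tested here.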

How the data were processed

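One-colour arrays of 62976 features (Agilent) measured thyroid RNA of 6 KI-treated and 7 control rats. The authors deposited scanner files with an intensity per spot, from which Agilent's own software (version 10.7.3.1) had subtracted background and spatial trend but which had no further scaling. A table of log2 values was deposited too, whose ranks match those of the raw median signal (rank correlation at least 0.999), with column medians of 6.83 to 6.95. How these were centred is not given in the sources used here, and they served only as an alternative. Faint spots depend most on the subtraction of background.

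Control spots and spots flagged as outliers were left out, the log2 spots of one probe were averaged, and the 75th percentile of the probe averages was subtracted on each array. A probe was well above background where at least 50% of its spots were, and 25717 of 45598 probes, those so on at least 6 arrays, were tested with limma (version 3.58.1, R 4.3.3) and Benjamini-Hochberg adjustment at 0.05. The number of arrays limits the precision. The fit was tested on simulated data. Groups and replicate numbers come from the titles of the samples. Symbols were updated through RefSeq accessions (all 7 member probes matched). The genes named are all members, the 10 genes most correlated with the globin mean, and in each blood list those with an unadjusted p under 0.05 and the 2 with the largest difference, each gene by its brightest probe, and other genes were named after their values had been seen. Some genes that this rule selects are not reported here. Members and lists were chosen with earlier results of these data known. Alternatives were quantile normalization, normexp (offset 50) with either scaling, the deposited values, no or a stricter filter, slide, scan session or replicate number as a block, array weights, the methods' t-test, the brightest probe of each gene, and the omission of single arrays. The 75th percentile over spots and leaving out controls 4 and 6, or control 4 alone for single genes, were added after seeing the data. Python 3.11.15 with scipy 1.17.1 was used for the rest.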

Additional observations from a re-analysis of the deposited data

Results flagged for a closer look

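No member probe had an array that stood apart from its group by Dixon's test. Slc4a1 was not flagged at 0.52 in KI-treated 4, where the next array of the group was at -1.35. Of 70 groups of arrays checked for members and other named genes, 5 had an array that stood apart, and chance alone flags about 1 in 20 groups. Cd3d was 3.75 in KI-treated 1, with the next array at -1.30, and Cd3g was 2.96 in the same array, with the next at -4.28. Alas1 was 5.09 in KI-treated 6, where the next array of the group was at 4.37. Slc48a1 was lowest in control 4 at -0.0763, with the next control at 0.68. Ly6c was also lowest in control 4, at -2.30, with the next at -1.45.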

How the results depend on the processing

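No member passed the adjusted threshold under any of the 188 alternative values computed, 165 of which kept the direction, and the smallest adjusted p was 0.188. The sign of Hba1 turned to 0.0695 after quantile normalization, 0.0615 with normexp and quantile normalization, 0.00785 with the deposited values and 0.0447 without controls 4 and 6. In the same order the split Hbb-b1 probe turned to 0.0697, 0.0702, 0.0569 and 0.129, and to 0.11 with array weights, and the single-block probe turned to 0.164, 0.154, 0.159 and 0.139, to 0.128 with array weights, 0.0151 with normexp and the 75th percentile and 0.0590 with the percentile over spots. Leaving out 1 array gave -0.26 to -0.06 for Hba1, -0.190 to 0.0185 for the split (positive without control 6) and -0.103 to 0.0791 for the single-block probe, and -0.22 to 0.39 for Slc4a1 (negative without KI-treated 4). The cause was not tested. The count of probes called was 0 in every setting but array weights (50, 2 higher and 48 lower) and was 0 to 1 when 1 array was left out, with 1 without control 1 or control 2. The methods' t-test also called 0, with 3142 under an unadjusted p of 0.05. With the scan session as a block, 5120 probes had an unadjusted p under 0.05 against 3271. The median r of the member pairs moved from 0.37 to 0.82 without controls 4 and 6, and lay between 0.16 and 0.61 when 1 array was left out.

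The replicate numbers, which both groups share from 1 to 6, did not pair the arrays: same-numbered arrays had deviations correlated at -0.11 to 0.07. With the replicate block, which drops control 7, 0 probes were called, 2356 had an unadjusted p under 0.05, and Hbb differed by 0.47. The median difference of the members lay between 0.01 and 0.17 when 1 array was left out.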
